A study of Mus musculus with 8 samples.

Results

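Mouse mammary tumors treated with C29 together with 5-azadC were compared with tumors that received vehicle, over the DNA methylation of the whole autosomal genome sampled by reduced representation bisulfite sequencing (RRBS). The comparison held 4 of the 8 libraries of the series, namely the 2 libraries labelled C29+5-azadC and the 2 labelled DMSO, chosen by treatment alone. The tumors had been grown from NIC-5231 cells, a mouse line derived from an ErbB2-driven mammary tumor, in the fat pad of NSG mice aged 5 to 7 weeks, a host strain without working lymphocytes. Each group had 5 mice, and the combination group received C29 at 10 mg/kg and 5-azadC at 1 mg/kg every 2 days, whereas the vehicle group received neither drug. Each library was made from tumor DNA pooled from 2 mice, so the 2 values of a group are 2 pools and not 2 single animals. Tumor cells and host cells are both of mouse origin, and their reads cannot be told apart.

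In mammalian DNA, methyl groups sit on the cytosine of CpG dinucleotides, and they are copied to the new strand after each replication by DNMT1. CpG-rich promoters of active genes are kept free of methylation, while gene bodies and the sequence between genes are methylated at most of their sparse CpGs. 5-azadC (decitabine) is a cytidine analog that is built into DNA and traps DNA methyltransferases there, so that methylation is diluted as cells divide. C29 is a ligand that inhibits ERRα, an orphan nuclear receptor best known for its control of genes of mitochondrial energy metabolism. RRBS reads the ends of fragments cut at CCGG sites, so CpG-rich promoters are over-represented and each region outside them is seen through few cytosines.

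Autosomal cytosines with 10 or more reads in each of the 4 libraries were kept, apart from those among the 0.1% of highest coverage in a library, which left 767148 of the 2785085 cytosines seen in any of the 4. All of them lay at a CpG of the genome. Of the kept cytosines, 56.8% lay within 1000 bp of an annotated start site (promoter-proximal), 8.20% in exons, 17.4% in introns, 7.75% between genes within 10 kb of one, and 9.86% over 10 kb from any gene (distal). Total reads over cytosines were 70254846 and 70790628 in the vehicle libraries and 57947338 and 51359825 in the combination libraries, with a median of 26 reads per listed cytosine in each vehicle library and of 23 and 21 in the combination libraries. The unmethylated control DNA read 0.216% to 0.302% methylated in these libraries and the methylated control 97.6% to 98.3%.

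Markers of cell types were read first, as the mean methylation of the promoter-proximal cytosines of each gene. Genes of epithelial identity mostly had low promoters, with a mean over 19 genes of 9.69% and 10.1% in the vehicle libraries and 9.09% and 10.2% in the combination libraries. Of the 19, 12 stood under 10% in all 4 libraries. Cdh1, which encodes E-cadherin, stood between 1.56% and 5.99%, but Elf5 stood between 61.1% and 87.7%. Leukocyte markers were highly methylated on average, with a mean over 10 genes of 63.8% and 65.5% in vehicle and 59.0% and 66.4% in the combination. The promoter of Ptprc, the pan-leukocyte antigen CD45, stood between 81.1% and 100%. Those of Lcp1 and Coro1a were lower, between 0% and 22.4% and between 20.1% and 33.4%. Fibroblast markers averaged 28.13% and 28.49% against 28.08% and 26.71% over 13 genes. The groups overlapped for the epithelial and leukocyte lists, while both combination libraries lay below both vehicle libraries for the fibroblast list. Endothelial markers averaged 41.1% and 46.4% in vehicle and 39.7% and 36.7% in the combination over 14 genes, so this list too stood lower in both combination libraries. The part of host fibroblasts and vessels in the results below was not tested.

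The combination lowered methylation genome-wide, and the share of the starting level that was lost lay between 8.57% and 10.5% in each of the 5 compartments. Over all kept cytosines the vehicle libraries averaged 36.00% and 35.97% and the combination libraries 32.48% and 32.53%, a difference of -3.48 points with an SD of 0.0253 points between vehicle libraries and 0.0306 points between combination libraries (n = 2 each). This loss amounted to 9.67% of the vehicle level and was far larger than the spread of either group. In promoter-proximal sequence the libraries stood at 13.6% and 13.7% with vehicle and at 12.5% and 12.1% with both drugs, a change of -1.36 points or 9.96% of the level. Exons fell from 70.7% in both vehicle libraries to 64.4% and 64.5%, and introns from 66.3% and 66.1% to 59.0% and 59.5%. Sequence between genes within 10 kb of one fell from 58.2% and 58.1% to 52.3% and 52.7%. Distal sequence fell from 65.0% and 64.6% to 58.8% and 59.7%. Changes in these compartments were thus -6.25, -6.94, -5.66 and -5.56 points, or 8.84%, 10.5%, 9.73% and 8.57% of the vehicle level, and in each compartment both combination libraries lay below both vehicle libraries. With 2 libraries against 2 the two-sided exact permutation p was 0.33 for each, the smallest that this design allows.

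**Figure D1:**
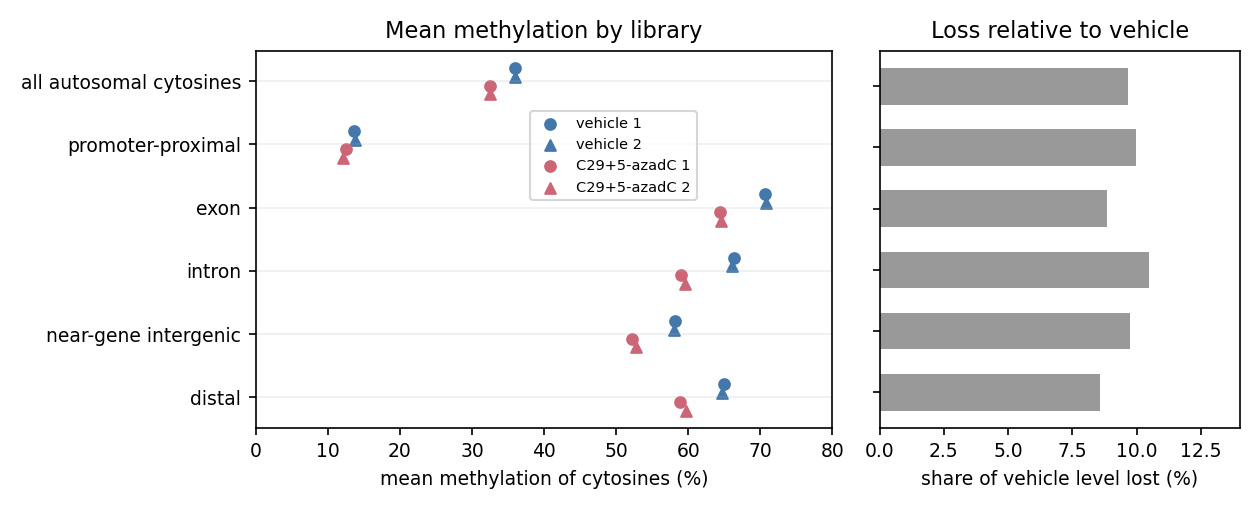
Mean methylation (%) of kept cytosines in each library by genome compartment (left; blue for vehicle, red for C29+5-azadC, circles and triangles for the 2 libraries of a group) and the share of the vehicle level that was lost (right, %). Levels differ from 13.7% in promoter-proximal sequence to 70.7% in exons, while the share lost stays between 8.57% and 10.5%.

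The same held along the distance from start sites. Cytosines within 250 bp of a start site averaged 9.93% with vehicle and 8.98% with both drugs, a loss of 9.59% of the level, and those at 500 to 1000 bp averaged 28.9% and 25.9%, a loss of 10.5%. From 1000 to 2000 bp the level fell from 52.5% to 47.1%, and beyond 50000 bp from 67.8% to 62.0%, which were losses of 10.3% and 8.52%. Every one of the 19 autosomes had lower cytosines outside promoters in both combination libraries, with a difference of -5.85 points on chromosome 4, the smallest, and of -7.32 points on chromosome 16, the largest. In 1 Mb windows with 50 or more cytosines outside promoters, 1756 of 1801 (97.5%) had a lower mean, and in 1556 (86.4%) both combination libraries stood below both vehicle libraries, against 10 (0.555%) in which both stood above. The median window differed by -6.33 points, whereas the vehicle libraries differed from each other by a median of 1.98 points in the same windows and the combination libraries by 2.36 points, without regard to sign. The 10th and 90th percentiles of the windows were -9.76 and -2.65 points. One window with a mean above vehicle and no overlap was chr7:6000001-7000000, which holds the imprinted gene Peg3 described below, at 66.96% and 70.4% in vehicle against 72.1% and 70.7% in the combination.

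Outside promoters, CpG-dense sequence lost less, both in points and as a share. Among 1000 bp tiles outside promoters, those with fewer than 10 CpGs went from 69.5% and 69.6% to 61.9% and 63.0%, a loss of 10.2% of the level. Tiles with 10 to 19 CpGs lost 9.98% and those with 20 to 39 lost 8.62%. Tiles with 40 or more CpGs, which were outside the annotated promoters but as dense as many CpG islands, went from 44.4% and 44.7% to 41.5% and 40.9%, a loss of 7.41%.

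Tiles at the top of the methylation range became fewer in every compartment. For 69543 tiles of 1000 bp with 3 or more kept cytosines, 24.6% were at 90% methylation or more in each vehicle library, and 14.9% and 15.1% were in the combination libraries. Exon tiles showed the widest shift, from 44.5% and 45.1% of tiles to 26.5% and 27.2%, and intron tiles went from 34.0% and 33.7% to 19.9% and 20.05%. Distal tiles at this level went from 26.8% in both vehicle libraries to 17.4% and 18.2%, and promoter-proximal tiles from 10.4% and 10.2% to 6.31% and 6.13%. The share of tiles under 10% rose little, from 26.6% and 27.0% to 28.3% and 28.1% while the class from 50% to 90% went from 32.1% and 31.7% to 36.97% and 36.9% of tiles.

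**Figure D2:**
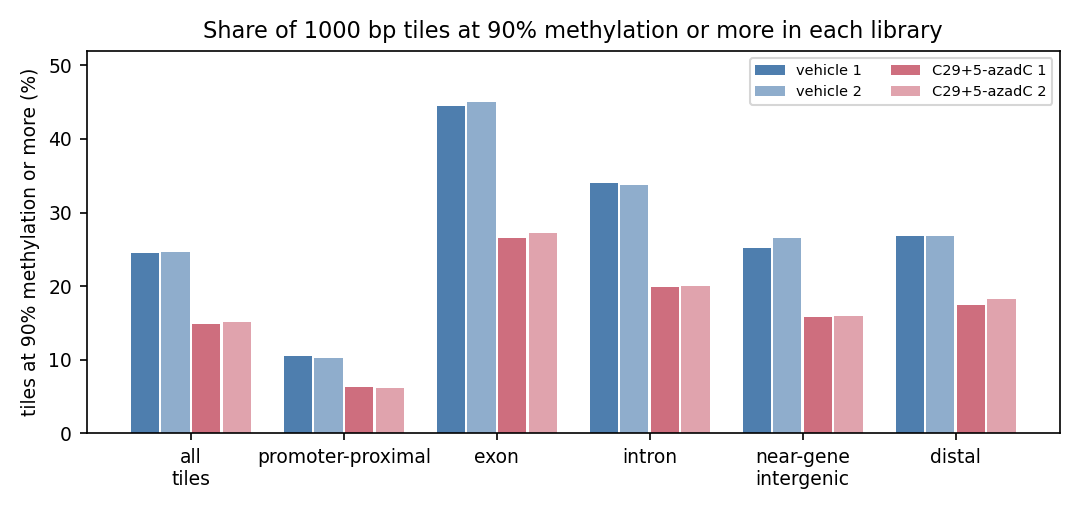
Share (%) of 1000 bp tiles at 90% methylation or more in each library, for all tiles and by compartment (blue, vehicle; red, C29+5-azadC; paler bars are the second library of a group). Exon tiles go from 44.5% and 45.1% to 26.5% and 27.2% and near-gene intergenic tiles from 25.2% and 26.5% to 15.8% and 16.0%.

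To read the change against the starting level without sorting and measuring in the same library, tiles were sorted by 1 vehicle library and the change was taken from the other. Tiles at 80% to 95% in vehicle 1 averaged 86.1% in vehicle 2 and 78.2% and 78.6% in the combination libraries, a change of -7.74 points. Tiles at 40% to 60% averaged 53.1% in vehicle 2 and 47.1% and 47.3% in the combination libraries, and those at 5% to 20% averaged 16.2% against 13.5% and 13.98%. As a share of the level the losses were 8.99%, 11.1% and 15.2%, so the relative loss was larger at 5% to 20% and at 40% to 60% than at 80% to 95%. Tiles under 5% went from 2.20% to 1.97% and 2.04%, a loss of 8.62%, which was 13.2% when tiles were sorted by vehicle 2. Sorting by vehicle 2 gave losses of 9.24%, 10.9% and 14.8% in the same 3 classes.

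**Figure D3:**
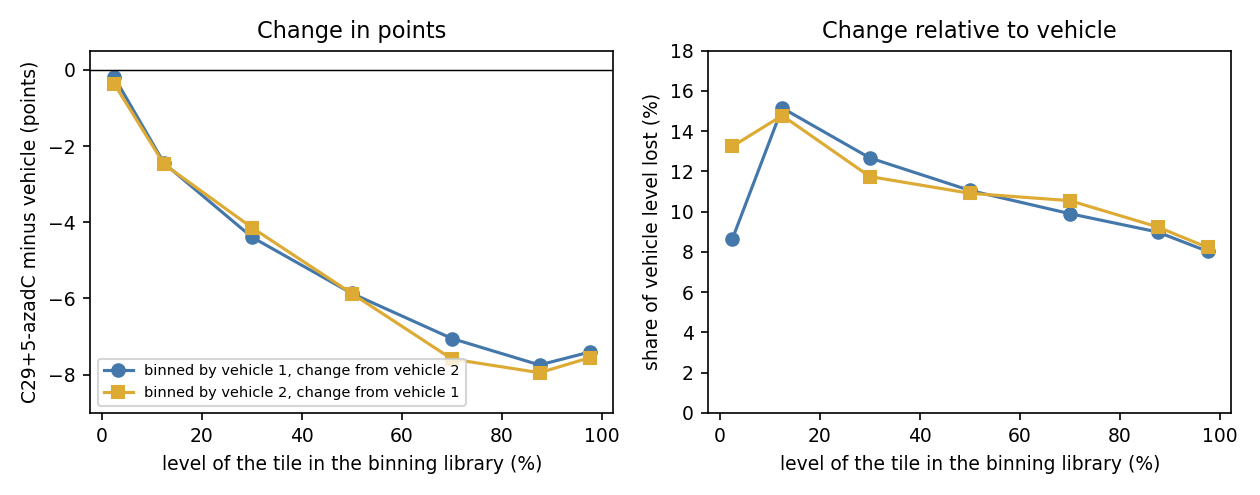
Change with C29+5-azadC in points (left) and as a share of the vehicle level lost (right, %) for tiles grouped by their level in 1 vehicle library and read against the other vehicle library. Both ways of sorting show the largest loss in points at 80% to 95% (-7.74 and -7.95) and the largest relative loss at 5% to 20% (15.2% and 14.8%).

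Single tiles were next tested one by one. Methylated and unmethylated reads were summed over a tile and compared by a logistic likelihood-ratio test, the default of methylKit, and a call required 25 points or more together with q (Benjamini-Hochberg) under 0.01. This test accounts for counting error only, since it pools the reads of a group and has no term for the spread between libraries. Reads can also be PCR copies of the same molecule and are then not independent. Of 69543 tiles, 4295 were called lower (6.18%) and 834 higher (1.20%), and 83.7% of the calls were thus losses. Among the calls, 3529 of the lower and 598 of the higher tiles had no overlap between groups, whereas over all tiles 26.1% lay apart in the lower and 7.11% in the higher direction. Calls were rarest in promoter-proximal tiles, with 701 lower and 160 higher of 25473 (3.38%). They were most frequent in introns, with 1647 lower and 277 higher of 17793 (10.8%). Of promoter-proximal tiles, 60.2% and 60.3% stood under 10% in the vehicle libraries, a level from which 25 points cannot be lost. These tiles also held a median of 10 kept cytosines, against 4 in introns, so the 2 shares are not directly comparable. Exon tiles gave 595 lower and 89 higher of 8208, and distal tiles 777 lower and 175 higher of 10369. A called lower tile stood at a median of 84.5% with vehicle and 49.3% with the combination, and a called higher tile at 37.5% and 72.4%.

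The spread between libraries of a group was large at this scale. Vehicle libraries differed by 25 points or more in 9.79% of tiles and combination libraries in 14.9%, and the variance between libraries was a median of 8.97 times what counting reads gives. Outside promoters 40.8% and 43.9% of cytosines had every read methylated in the vehicle libraries, against 34.4% and 34.1% in the combination libraries, and 17.0% and 19.1% had no methylated read, against 22.2% and 21.1%. The combination libraries were shallower, with medians of 23 and 21 reads per listed cytosine against 26. Fewer reads can raise the share of cytosines with no methylated read, and the part of depth in these shares was not tested. With the spread between libraries taken into account by an F test, 0 tiles were called and 4187 (6.02%) had an unadjusted p under 0.05, of which 3478 were lower. With 2 libraries per group this F test could hardly reach q under 0.01 at any tile. Its 0 calls therefore do not decide whether single tiles differed. The quasi-likelihood test of edgeR likewise called 0 tiles, with 3258 (4.68%) under an unadjusted 0.05. The tiles described below are therefore called by counts of reads and given with the value of every library.

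Most calls did not extend to the neighbouring tile, although neighbours of called tiles were called the same way more often than tiles in general. Of 916 tiles next to a called lower tile, 62 (6.77%) were called lower too, beside 3.50% of all tiles that have a tested neighbour, and no run of called lower tiles was longer than 2. Next to called higher tiles, 8 of 207 neighbours (3.86%) were called higher, beside 0.792% of all tiles that have a tested neighbour. The median of these neighbours was lower, at -2.38 points, beside -0.271 points over all such tiles.

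Far from genes, 282 distal tiles were called lower and 40 higher with 100 or more reads in each library and no overlap between groups. The stretches below, from the plus strand of GRCm38, are shown because they hold the cytosines with the largest loss and the largest gain far from any gene and a second gain in which the vehicle libraries were nearly equal. Capitals mark the CpGs whose cytosines were kept.
chr17:3570416-3570469: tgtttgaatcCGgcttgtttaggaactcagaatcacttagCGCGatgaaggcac
chr14:75828485-75828552: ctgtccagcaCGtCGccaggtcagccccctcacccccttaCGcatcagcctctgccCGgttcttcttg
chr10:53889077-53889186: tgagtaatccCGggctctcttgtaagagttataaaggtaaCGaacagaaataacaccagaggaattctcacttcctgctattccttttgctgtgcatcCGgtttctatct

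The first stretch lies in tile chr17:3570001-3571000, 12.6 kb from Tfb1m, which encodes a mitochondrial ribosomal RNA methyltransferase. Over 4 cytosines the tile stood at 68.9% (148 reads) and 82.0% (205 reads) with vehicle and at 0% (125 reads) and 4.72% (106 reads) with both drugs, or -74.3 points. In the printed stretch the 3 cytosines read 60.3% to 100% with vehicle, and no methylated read was seen in either combination library, where 24 and 21 reads covered each of them. Tumors given C29 alone stood at 47.7% and 56.5%. With 5-azadC alone 1 library stood at 72.3%, and the other at 10.8% (65 reads) from 1 of the 4 cytosines.

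The second stretch showed the opposite. Tile chr14:75828001-75829000 is 16.6 kb from Tpt1, the gene of the translationally controlled tumor protein, and its 4 cytosines had 0 methylated reads of 236 in vehicle 1 and of 108 in vehicle 2. With both drugs 48.1% of 183 and 75.0% of 192 reads were methylated, a difference of 61.9 points. All 4 cytosines moved alike, to 47.8% or 48.9% in combination 1 and to 75.0% in combination 2. They lie within 47 bp on the same strand, so the same fragments were read for all 4. With single drugs the tile stood at 18.7% and 15.7% with C29 and at 21.8% and 2.90% with 5-azadC.

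The third stretch lies in tile chr10:53889001-53890000, 15.7 kb from Man1a, an alpha-mannosidase that trims N-linked glycans. Vehicle libraries stood at 36.5% and 36.7% and combination libraries at 68.4% and 84.4%. Its middle cytosine went from 11.5% and 0% to 86.0% and 100%, while the last, read on the other strand, went only from 42.4% and 44.2% to 51.1% and 52.5%.

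Other distal tiles were less even between libraries. The tile chr17:62519001-62520000, 84.3 kb from Efna5, an ephrin ligand, stood at 93.8% and 89.7% with vehicle and at 51.8% and 32.4% with both drugs. A tile 30.8 kb from Edn2, which encodes endothelin 2, stood at 58.0% and 99.3% against 30.2% and 24.8%, and its difference of -49.7 points was -30.0 without vehicle 2. The tile nearest to Sesn3, a stress-induced sestrin, stood at 46.5% and 100% against 34.9% and 0.709%, and its difference of -49.2 points became -84.4 without vehicle 1, -30.9 without vehicle 2 and -30.0 without combination 2. That nearest to Cbln4, a synaptic cerebellin, stood at 59.0% and 87.7% against 53.8% and 0%. Its difference of -52.9 points was -34.6 without vehicle 2 and fell under the call at -23.4 points without combination 2. Higher distal tiles lay nearest to Fam19a5, at 21.6% and 8.02% against 43.9% and 62.0%, where the difference of 39.5 points was 19.5 with cytosines weighted equally, and to Spred2, an inhibitor of Ras signaling, at 41.8% and 62.4% against 82.8% and 97.0%.

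Gene bodies, read from cytosines between gene start and end that lie over 1000 bp from any start site, were lower in most genes. Of 12465 genes with 3 or more such cytosines, 560 were called lower (4.49%) and 51 higher (0.409%), and the groups lay apart in the lower direction in 44.1% and in the higher in 4.41%. Among the 9888 that code for protein, 412 were called lower (4.17%) and 34 higher (0.344%), and 81.2% had a lower body with the combination. The median body stood at 80% and 79.4% in the vehicle libraries and at 70.2% and 70.7% in the combination libraries, and the share of bodies at 90% or more went from 29.1% and 29.3% to 12.3% and 12.5%. Both combination libraries stood below both vehicle libraries in 4531 coding genes (45.8%) and above both in 417 (4.22%). The median gene differed by -7.10 points, whereas the vehicle libraries differed from each other by a median of 5.59 points without regard to sign and of 0 with sign. For the combination libraries these medians were 7.66 and 0.251 points, so single genes also varied by several points between libraries of a group. The median of -7.10 points keeps its sign and is not the same measure as the medians without sign.

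Gene bodies with more cytosines lay apart in the lower direction more often and were called less often. With 10 or more cytosines, 37 of 5166 coding genes were called lower and 1 higher. With 20 or more only 2 of 2646 were called, yet 58.4% lay apart in the lower direction and 2.42% in the higher. With 50 or more 0 of 732 were called at 25 points, 63.4% lay apart lower and 1.91% higher, and the median difference was -6.35 points. Long noncoding RNA genes (lincRNA) had 81 of 1283 called lower, 8 higher and a median of -6.09 points. Exons and introns of the same gene, compared in 906 genes with 10 or more cytosines in each, had median differences of -6.56 and -6.92 points from vehicle medians of 80.7% and 64.7%, and 675 of these genes (74.5%) were lower in both. With edgeR 0 gene bodies were called, while 1701 of 12465 (13.6%) had an unadjusted p under 0.05, of which 1660 were lower. The F test gave 0 calls and 1286 bodies (10.3%) under 0.05, 1214 of them lower. As for tiles, the F test could hardly give a call with 2 libraries per group.

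**Figure D4:**
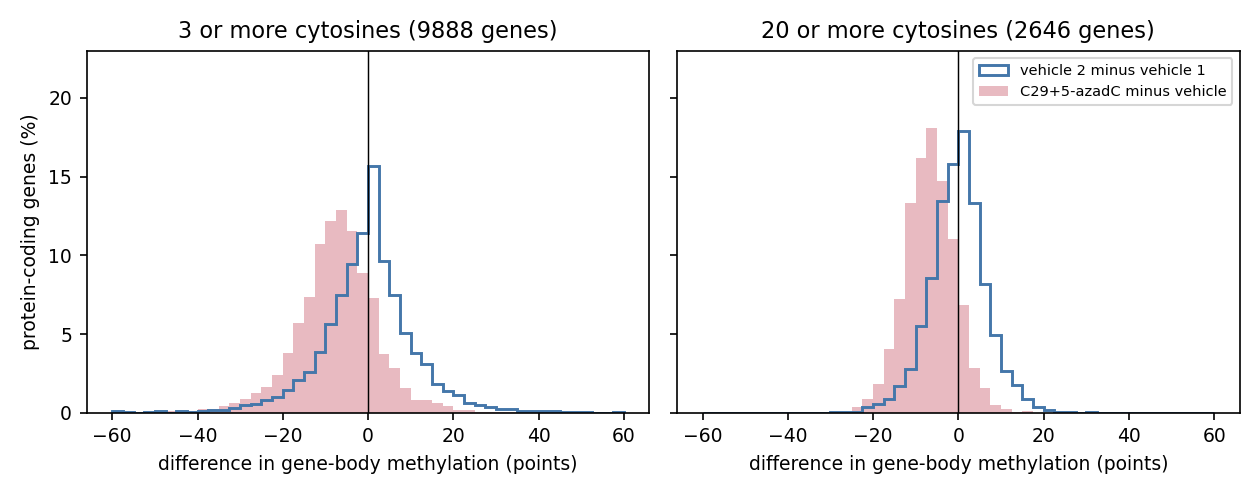
Distribution over protein-coding genes of the difference in gene-body methylation (points), C29+5-azadC minus vehicle (red, filled) and vehicle 2 minus vehicle 1 (blue line), for genes with 3 or more cytosines (9888, left) and with 20 or more (2646, right). Differences past 60 points are drawn at 60. The red distribution sits to the left of 0, with medians of -7.10 and -6.72 points, and the distribution of vehicle libraries is centred near 0.

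Genes named here had a called body with 10 or more cytosines, 500 or more reads in each library and no overlap between groups. This held for 11 coding genes with lower and 0 with higher bodies. Of those described here, Nr4a1, an orphan nuclear receptor of the immediate-early response, had the closest replicates.

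The body of Nr4a1 (chr15:101254269-101274795) stood at 90.3% and 87.7% with vehicle and at 60.99% and 63.0% with both drugs over 25 cytosines, or -27.0 points. Of these cytosines 13 lay in exons and 12 in introns, and 9 had no overlap between groups in the lower direction against 1 in the higher. The loss was not even along the gene. A group of 3 intronic cytosines, at 0% to 100% with vehicle, had no methylated read in either combination library, while a coding stretch of 9 cytosines stood at 95.8% and 81.4% against 88.2% and 72.0%, with overlap. With single drugs the body of Nr4a1 stood at 77.7% and 72.1% with C29 and at 59.6% and 70.2% with 5-azadC.

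Tbcel, which encodes a protein related to a tubulin-folding cofactor, had the largest difference of the named bodies, from 81.5% and 70.7% to 37.9% and 50.4% over 14 cytosines, or -32.3 points. A promoter-proximal tile of the same gene was called higher. The calls of Nr4a1 and Tbcel held without each library in turn, but with 20 or more reads per cytosine Nr4a1 differed by -17.3 points and Tbcel by -20.8, and with cytosines weighted equally Tbcel differed by -23.98, all under the call.

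Rnf43 and Kdelr3 are shown by sequence because, with reads summed over the CpGs marked in capitals, both combination libraries lay below both vehicle libraries. The run of Rnf43 is coding sequence and that of Kdelr3 intronic, both on the plus strand of GRCm38.
Rnf43, chr11:87731162-87731274: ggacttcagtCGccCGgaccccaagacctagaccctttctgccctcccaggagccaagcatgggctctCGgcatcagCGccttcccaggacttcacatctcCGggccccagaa
Kdelr3, chr15:79517406-79517632: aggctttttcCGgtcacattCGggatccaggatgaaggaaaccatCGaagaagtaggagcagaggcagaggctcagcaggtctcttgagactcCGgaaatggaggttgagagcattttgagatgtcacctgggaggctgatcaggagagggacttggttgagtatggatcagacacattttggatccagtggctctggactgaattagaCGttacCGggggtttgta

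The 5 cytosines of the Rnf43 stretch stood together at 94.9% and 82.8% with vehicle and at 65.2% and 65.4% with both drugs. The 7 of the Kdelr3 stretch stood at 96.6% and 90.1% against 60.3% and 69.6%. Single cytosines within them did not all move this way. In Rnf43 the second marked cytosine was higher with both drugs, at 81.0% and 100% against 67.6% and 60%, and the first overlapped between groups. In Kdelr3 a cytosine stood at 100% in all 4 libraries.

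The remaining named bodies depended on single libraries. Rnf43, a ubiquitin ligase that removes Wnt receptors from the cell surface, stood at 65.4% and 60.4% with vehicle and at 32.0% and 42.2% with both drugs over 22 cytosines. Kdelr3, a receptor that returns proteins to the endoplasmic reticulum, stood at 96.3% and 93.8% against 57.03% and 74.2%, and 7 of its 12 cytosines lay apart in the lower direction. Hmcn1, the extracellular matrix protein hemicentin 1, stood at 83.6% and 74.6% against 42.8% and 56.3%. Sh3bp5 stood at 78.4% and 63.9% against 33.1% and 55.9%, Phldb1 at 62.0% and 74.1% against 30.2% and 51.3%, and Tmem178 at 78.3% and 86.3% against 50.2% and 62.8%. In each of these 6 genes combination 1 was the lower of the combination libraries, and without it the differences fell under the call, to -21.2 points for Rnf43, -20.8 for Kdelr3, -22.3 for Hmcn1, -16.5 for Sh3bp5, -17.6 for Phldb1 and -19.0 for Tmem178. Without vehicle 1 the calls of Sh3bp5 (-21.3 points) and Rnf43 (-23.9) were also lost, and without vehicle 2 those of Phldb1 (-22.8) and Tmem178 (-22.2). All kept their direction, which the rule of no overlap between groups fixes when a library is left out. At a minimum of 20 reads the difference was -7.64 points for Rnf43 and -17.1 for Hmcn1.

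Promoter-proximal tiles moved least on average but held some of the largest single differences, with 287 lower and 42 higher tiles past the same rule of 100 reads and no overlap. The stretches shown are a CpG-rich one that lost methylation inside Phactr1 and a short one that gained it in Trf, both on the plus strand of GRCm38 and in introns of these genes, with capitals for CpGs with kept cytosines.
Phactr1, chr13:42710148-42710287: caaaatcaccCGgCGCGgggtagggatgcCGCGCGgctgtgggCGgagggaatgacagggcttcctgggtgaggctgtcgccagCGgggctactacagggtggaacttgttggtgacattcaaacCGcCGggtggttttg
Trf, chr9:103227850-103227891: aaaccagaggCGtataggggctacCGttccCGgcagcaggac

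Phactr1, which binds actin and protein phosphatase 1, had 10 kept cytosines in this tile, a mean of 618 bp inside its start site. The tile stood at 75.7% (202 reads) and 77.0% (261 reads) with vehicle and at 0% (265 reads) and 41.7% (120 reads) with both drugs, and the difference of -63.5 points was -34.8 without combination 1. Of the 7 plus-strand cytosines, 5 were at 100% in combination 2, as in vehicle, and at 0% in combination 1. The first 2 read 0% in both combination libraries, against 48.3% to 100% with vehicle. With C29 alone the tile stood at 41.0% and 44.6%, from 7 of the 10 cytosines, and with 5-azadC alone at 47.6% and 27.7%.

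Trf encodes transferrin, the iron carrier of blood, and its 3 cytosines, a mean of 570 bp inside the start site, went from 0% (222 reads) and 6.97% (201 reads) to 52.1% (146 reads) and 42.2% (147 reads), a difference of 43.8 points. With C29 alone it stood at 95.8% (72 reads) and 0% (30 reads), and with 5-azadC alone at 0% (36 reads) and 22.9% (144 reads). Phox2a, a homeobox factor of autonomic neurons, stood at 61.2% and 24.4% with vehicle and at 88.0% and 70.0% with both drugs over 10 cytosines. Its difference of 41.9 points was 19.8 without vehicle 2, under the call.

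Of the other named tiles, that of Mettl21a, which encodes a methyltransferase of Hsp70 chaperones, lost methylation at 3 of 3 cytosines, and Des, the muscle intermediate filament desmin, at 3 of 4. Des stood at 56.7% and 64.0% with vehicle and at 4.44% and 11.1% with both drugs. Nfic, a transcription factor of the nuclear factor I family, stood at 88.9% and 81.9% against 46.6% and 13.5%, with 4 of 6 cytosines apart. Ovgp1, the oviduct glycoprotein, stood at 94.6% and 84.1% against 42.0% and 16.0%. Its kept cytosines lay in coding sequence, a mean of 480 bp inside the start site. At Peg3, a zinc finger gene expressed from the paternal allele, 3 of 4 cytosines gained without overlap, and the tile stood at 48.3% and 26.01% with vehicle and at 91.1% and 83.4% with both drugs. With single drugs Peg3 stood at 47.8% and 28.98% with C29 and at 60.9% and 75.6% with 5-azadC. Mmel1, a membrane metalloendopeptidase, was called higher from pooled reads, at 46.1% and 43.9% against 92.2% and 86.0%, although 2 of its 4 cytosines lay apart higher and 2 lower, and its difference of 43.4 points was 18.7 when cytosines were weighted equally.

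**Figure D5:**
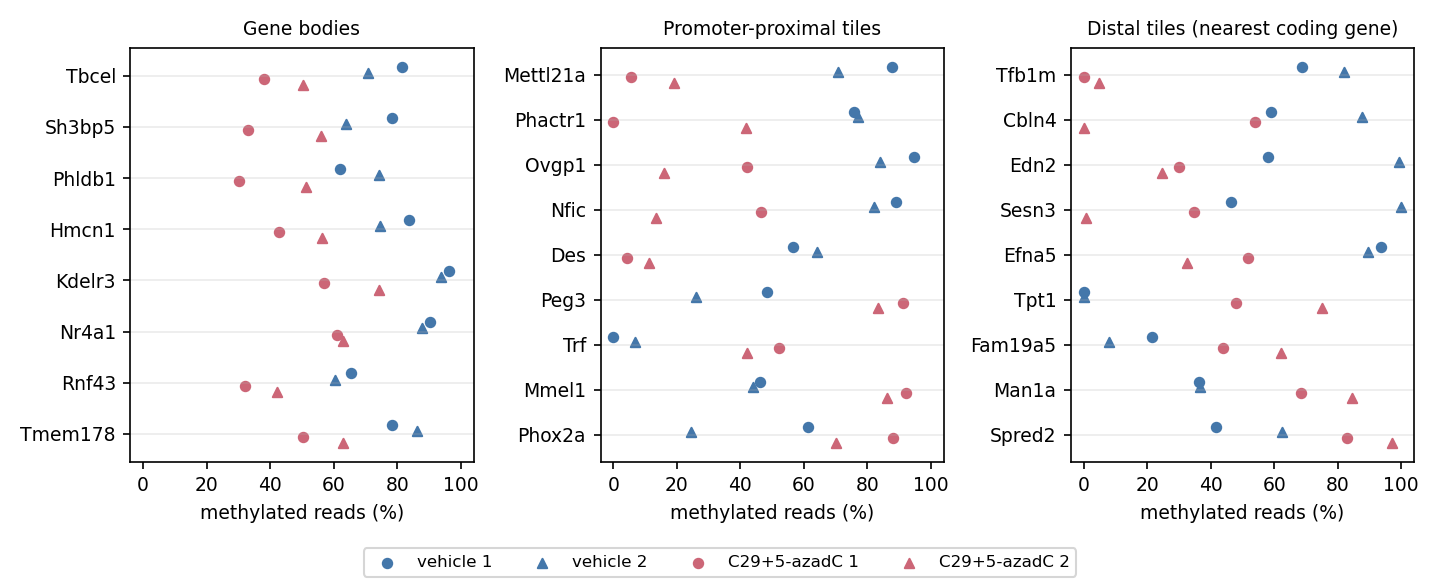
Methylated reads (%) of the named gene bodies (left), promoter-proximal tiles (middle) and distal tiles (right, labelled by the nearest coding gene) in each library (blue, vehicle; red, C29+5-azadC; circles and triangles for the 2 libraries of a group). Groups do not overlap because the rule required it, and among gene bodies the libraries of a group lie closest for Nr4a1.

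Bodies of genes with a called promoter-proximal tile were called about as often as all bodies, of which 4.49% were called lower and 0.409% higher. These shares cover all 12465 bodies, and those over only the genes with both parts tested are not given here. Among 8872 genes with both tested, 393 had a promoter-proximal tile called lower, of which 14 had a body called lower and 2 a body called higher. Of the 106 with a tile called higher, 4 had a body called lower and 0 a body called higher. Median body differences were -6.87 points in the first set and -5.69 in the second, beside -7.13 points over all 8872. In Ovol1, a zinc finger repressor that maintains epithelial identity, both parts were lower. Its body stood at 69.7% and 68.7% against 34.6% and 39.7% over 8 cytosines, and its promoter-proximal tile at 93.8% and 100% against 70.1% and 68.8%. In Col9a3, a chain of cartilage collagen IX that was named after its values were seen, a tile of 20 cytosines fell from 72.3% and 51.3% to 31.5% and 23.7%, while the 6 cytosines of the body rose from 9.09% and 0% to 34.7% and 41.4%.

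Gene lists that fit the drugs and the tumor followed the loss seen over all genes, without a test, since they were chosen with earlier results of these data known. Over all 12465 genes the median body difference was -7.02 points and 80.02% were lower. Of genes with a promoter-proximal tile, 4.14% had one called lower and 0.989% one called higher.

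In DNA methylation and the methionine cycle, the pathway that 5-azadC targets, 15 of 20 bodies were lower, 0 were called lower and 1 higher, with a median of -5.04 points, and 0 of 28 genes had a called promoter-proximal tile. The called body was Bhmt2, a betaine-homocysteine methyltransferase relative, at 70.9% and 26.8% against 92.4% and 70.1%, where the groups overlapped. Among the enzymes, named after their values were seen, the body of Dnmt1, the maintenance methyltransferase, stood at 84.4% and 83.1% with vehicle and at 65.1% and 66.1% with both drugs over 28 cytosines, a difference of -18.2 points that did not reach the 25 points of a call. That of Dnmt3b, a de novo methyltransferase, stood at 89.3% and 88.0% against 79.2% and 82.2%. Dnmt3a stood at 83.5% and 80.1% against 56.0% and 74.6%, whereas Tet2, which oxidizes methylcytosine, stood at 67.2% and 66.9% against 67.02% and 58.0%, with overlap. The promoter of Dnmt1 stood at 28.2% and 28.3% with vehicle and at 21.4% and 26.5% with both drugs, and that of Mat2a, which makes S-adenosylmethionine, had no methylated read in any of the 4 libraries.

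Typical ERRα targets of oxidative metabolism had promoters that were nearly free of methylation to begin with, at a mean of 5.71% and 5.82% in vehicle against 5.05% and 4.17% in the combination over 39 genes, and 32 of the 39 stood under 10% in all 4 libraries. In 2 genes a tile was called lower and in 0 higher. That of Cycs, which encodes cytochrome c, went from 12.8% and 44.0% to 0.474% and 0%, and that of Timm44, a subunit of the mitochondrial import motor, from 100% and 84.9% to 75.2% and 58.5%. All 11 bodies tested were lower, with a median of -7.22 points, and 0 were called. Idh3a, a subunit of mitochondrial isocitrate dehydrogenase named after its values were seen, differed most, by -22.5 points.

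In ErbB signaling, the pathway that drives this tumor model, 37 of 41 bodies were lower with a median of -8.73 points, 26 (63.4%) lay apart in the lower direction beside 44.1% of all genes, and 0 were called. Among the ERRα targets 7 of 11 (63.6%) lay apart likewise. The share apart rises with the number of cytosines per body, which was not matched between the lists and all genes. Of 61 genes 3 had a promoter-proximal tile called lower and 0 one called higher. That of Mapk3, the kinase ERK1, went from 90.9% and 81.0% to 50% and 53.9%, and Plcg1, a phospholipase downstream of receptor kinases, from 99.2% and 88.2% to 41.2% and 84.9%. The third, Stat5a, had overlapping groups. The body of Erbb3, named after its values were seen, stood at 78.2% and 77.3% against 59.9% and 69.4%. That of the mouse gene Erbb2 stood at 21.03% and 29.5% against 11.9% and 24.3%, with overlap.

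For the interferon response and antigen presentation, 19 of 22 bodies were lower, 2 were called lower and 0 of 29 genes had a called promoter-proximal tile. The body of Irf5, an interferon regulatory factor, went from 93.1% and 100% to 76.6% and 44.3% over 5 cytosines. Germline genes, which somatic cells keep silent under methylated promoters, stood at a mean of 82.3% and 83.1% in vehicle against 78.5% and 80.8% in the combination over 31 promoters. One of 30 had a tile called lower, Mov10l1, a helicase of the piRNA pathway, at 100% and 84.5% against 75.6% and 57.1%, and 0 had one called higher. No germline body of 17 was called.

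Genes of the extracellular matrix and adhesion had 6 of 50 genes (12.0%) with a tile called lower and 2 (4%) with one called higher, both of which, Col11a1 and Col5a3, had overlapping groups. Of 56 bodies in the list 2 were called lower and 2 higher, at a median of -7.00 points. Adamts1, a secreted protease, had the largest difference of any called list member, from 83.3% (84 reads) and 100% (42 reads) to 0.820% (122 reads) and 0% (57 reads) over 3 cytosines of its body. A tile of Col11a2, a chain of collagen XI, went from 84.7% and 81.8% to 28.7% and 0%. In the other direction, the body of Mmp9, a gelatinase, went from 35.5% and 39.7% to 85.7% and 79.6% over 4 cytosines. Genes of voltage-gated ion channels had 4 of 47 with a tile called lower and 0 higher, and 1 body of 52 called lower. A tile of the calcium channel gene Cacna1b went from 57.5% and 82.4% to 20.9% and 0%.

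In the marker lists of host cells 4 genes had a called promoter-proximal tile, or 22.2% of the leukocyte, 10% of the fibroblast and 7.14% of the endothelial genes, beside 5.09% of all genes. A promoter-proximal tile of Col1a2, a chain of collagen I, rose from 28.4% and 20.97% to 57.6% and 56.8%, and was the 1 of 10 fibroblast genes called. Of 9 leukocyte genes 2 had a tile called lower, of which Vav1, a signaling protein of blood cells, went from 66.4% and 60.6% to 17.9% and 35.4%, while the groups overlapped at Coro1a. The 1 endothelial gene called of 14, Esam, was higher by pooled reads with overlapping groups, at 29.8% and 89.8% against 87.2% and 56.0%.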

How the data were processed

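DNA methylation was measured by RRBS in pooled tumor DNA, with 2 libraries per treatment group. Per the submitters' processing notes and the paper's methods, the authors trimmed reads with Trim Galore 0.4.1, checked them with FastQC 0.11.8, aligned them with Bismark 0.20.0 to GRCm38 (mm10) and used methylKit 1.7.0. The authors deposited, for each cytosine, the count of reads covering it and the methylated fraction. Methylated reads were recovered here as count times fraction, and were whole within 0.01 reads for nearly all cytosines.

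Kept autosomal cytosines had 10 or more reads in all 4 libraries and lay outside the 0.1% of highest coverage. Compartments, tiles of 1000 bp and gene bodies, each with 3 or more cytosines, were placed with GENCODE M21. Compartment means weighted cytosines equally and were compared by exact permutation. Tiles and gene bodies were compared by a pooled logistic likelihood-ratio test (q under 0.01, 25 points or more), a test that covers counting error only. An F test corrected for overdispersion and edgeR 4.0.16 (R 4.3.3) were alternatives. Python 3.11.15, NumPy 2.4.6, SciPy 1.17.1, pandas 2.3.3 and matplotlib 3.10.9 were used, and the code was tested on simulated data.

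Named gene bodies were the 10 coding genes with the largest decreases and up to 5 with the largest increases among called bodies with 10 or more cytosines, 500 or more reads per library, no overlap of groups and an equal-weight difference of the same sign. Named tiles were the 5 largest decreases and 5 largest increases among called promoter-proximal and among distal tiles with 100 or more reads per library and no overlap, and named list members were at most 3 per list. Genes with provisional symbols were left out of the text. A few genes that met these rules are not reported here. The members, lists and tests were chosen with earlier results of these data known, and alternatives for the starting level and the gene lists were added after seeing the data. Single-drug libraries are given as values only.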

Additional observations from a re-analysis of the deposited data

How the results depend on the processing

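Of 321 alternative values 0 had a reversed direction, but counts of calls have no direction. Named features had been chosen without overlap between groups, so leaving out a library could not reverse them. The F test of these features reused the main difference. The difference in mean methylation lay between -3.66 and -3.40 points over all alternatives and between -3.50 and -3.46 without each library in turn, and the share lost lay between 7.91% and 11.2% over all cytosines and the 5 compartments. Counts of calls depended on the settings. The 5129 called tiles became 2024 at 20 reads, 11498 with both strands of a CpG summed and tiles of 2 or more CpGs tested (103077 tiles in place of 69543), 1189 with 5 or more cytosines and 23075 at 10 points, and 0 by the F test and by edgeR on 4 or on 8 libraries. Without each library in turn they numbered 7025 to 8298, with 7975 without combination 1 and 8298 without combination 2. The 611 called gene bodies became 381 at 20 reads, 44 with 10 or more cytosines and 4901 at 10 points, and 0 by the F test and by edgeR on 4 or on 8 libraries. Leaving out libraries gave 877 to 1068, with 917 without vehicle 1, 1009 without combination 1 and 1068 without combination 2. Of the 30 named features, 13 of 19 with a value stayed called at 20 reads, 26 at 5 reads, 22 with equal weights, 24 to 28 without each library and 0 by the F test. The change of tiles at 80% to 95% was -7.37 points at 20 reads. The 9 called bodies of the gene lists became 4 at 20 reads and 10 to 16 without each library, with 15 without vehicle 1 and 16 without combination 1.

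With the replicate number as a block, 4992 tiles and 598 gene bodies were called. Whether libraries of the same number share more than a name is not given. The correlation over tiles of the replicate differences of both groups was -0.0039. This value does not decide it, because the spread between libraries was large at single tiles.

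With 2 libraries per group, exact tests could not pass 0.05, and the F test could hardly pass q under 0.01 for tiles, gene bodies or named features. In addition, 21 to 26 reads per cytosine with 3 to 5 cytosines per tile limited single tiles. The combination libraries were the shallower ones, and the part of depth in single calls was not tested.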

Other observations

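The X chromosome, left out of the comparisons above, also lost methylation, from 56.5% and 56.2% in the vehicle libraries to 53.4% in each combination library over 18054 cytosines. The difference of -2.93 points was 5.20% of the vehicle level, beside 9.67% over the autosomes.

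Imprinted genes, which carry methylation on 1 parental allele, were looked at after the gain at Peg3 had been seen. Of 31 with a promoter level among 34 listed, 7 lay apart in the lower direction and 7 in the higher, beside 23.1% and 8.44% of all 18531 promoters. The 7 higher ones include Peg3 itself and its neighbour Usp29, whose 5 promoter-proximal cytosines include the 4 of Peg3, so the 2 are not separate gains. Commd1 and Zrsr1 are both among the 7 as well, and how many of their cytosines are shared was not counted. The 7 are therefore not 7 separate gains. Cdkn1c, which encodes a cyclin-dependent kinase inhibitor, stood at 71.1% and 76.3% with vehicle and at 57.6% and 52.1% with both drugs over 43 cytosines. The promoter of Slc38a4, an amino acid transporter gene, stood at 65.0% and 58.8% against 48.1% and 44.9%. In the other direction, Zrsr1, a splicing factor gene, stood at 42.9% and 44.6% against 51.7% and 54.5% over 40 cytosines.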
